A study of Mus musculus with 2 samples.

Results

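The cells described here are the tuft barcodes of mouse colonic crypt preparations, a rare chemosensory epithelial type. A droplet barcode was taken as a tuft cell when it had 500 or more detected genes, under 25% mitochondrial UMIs, no Cd79a UMI, and 3 or more UMIs (unique molecular identifiers, each standing for 1 captured RNA molecule) summed over Dclk1, Trpm5, Sh2d6, Avil and Rgs13, from at least 2 of these genes. This rule found 71 barcodes of the 19406 deposited, with 29 in the Mettl14_cKO library and 42 in the control library. Those 5 genes chose the members, so their levels are given as a description and support nothing else.

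The study sequenced 2 droplet libraries of isolated colonic crypt cells of 4-week-old C57BL/6 mice, 1 per genotype, each from the pooled cells of 3 mice. The Mettl14_cKO library came from M14(f/f);Villin-Cre mice, in which Cre is driven by the Villin promoter, active in the intestinal epithelium. The control library came from M14(f/f) mice, which carry the same floxed allele and no Cre. M14 is read here as Mettl14, a subunit of the enzyme that writes N6-methyladenosine on RNA, from the series title. With 1 library a genotype no difference between genotypes can be tested, and every interval below covers counting error only.

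Tuft cells carry a bundle of stiff apical microvilli and sense luminal chemicals through a taste-type cascade, in which a G protein and a phospholipase release calcium that opens the cation channel Trpm5. In the mouse intestine they are known as the main epithelial source of the cytokine IL-25, and they release leukotrienes, prostaglandins and acetylcholine. Their formation needs Pou2f3, a transcription factor of the POU family, whose members bind the octamer ATGCAAAT and its reverse complement ATTTGCAT.

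The octamer was searched on both strands in the RefSeq promoter windows, which run from 250 bases before to 50 bases after each annotated start. It was in 8 of the 69 genes of the tuft lists that had a window (11.6%), and in 532 of 27025 genes overall (1.97%). Among the genes set apart in tuft barcodes (defined below, with the rule genes), 25 had a window and 2 of these held the octamer (8%). A match is a description of these letters and not a binding site. Both windows are shown, because these 2 genes were also at least 8-fold higher in tuft than in other epithelial barcodes of each library. The third belongs to Kctd12, a potassium channel tetramerisation domain protein of the tuft lists, which was under that limit. The windows are on build GRCm38.p6, minus strand, written 5′ to 3′, with the octamers in capitals. They lie at chr9:51328869-51329168 (1810046K07Rik), chr6:65144681-65144980 (Hpgds) and chr14:102982588-102982887 (Kctd12).
1810046K07Rik: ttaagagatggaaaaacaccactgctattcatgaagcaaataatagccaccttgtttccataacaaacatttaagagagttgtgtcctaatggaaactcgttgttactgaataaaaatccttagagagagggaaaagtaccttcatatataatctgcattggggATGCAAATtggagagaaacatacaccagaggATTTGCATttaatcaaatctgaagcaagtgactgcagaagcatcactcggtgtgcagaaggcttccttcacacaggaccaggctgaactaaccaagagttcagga
Hpgds: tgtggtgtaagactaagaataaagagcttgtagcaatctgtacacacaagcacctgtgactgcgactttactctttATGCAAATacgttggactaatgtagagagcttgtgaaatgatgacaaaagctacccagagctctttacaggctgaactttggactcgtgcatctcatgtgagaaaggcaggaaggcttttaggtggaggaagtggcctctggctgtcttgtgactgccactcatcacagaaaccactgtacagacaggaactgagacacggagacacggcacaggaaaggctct
Kctd12: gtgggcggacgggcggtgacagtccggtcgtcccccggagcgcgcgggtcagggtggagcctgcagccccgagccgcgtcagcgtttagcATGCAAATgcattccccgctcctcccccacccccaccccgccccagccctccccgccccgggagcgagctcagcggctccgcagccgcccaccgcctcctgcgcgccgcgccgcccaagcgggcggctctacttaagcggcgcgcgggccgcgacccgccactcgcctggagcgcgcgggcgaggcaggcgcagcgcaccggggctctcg
The first octamer base was at position -86 and, as the reverse complement, at -55 for 1810046K07Rik, at -174 for Hpgds and at -160 for Kctd12, counted from the start site. The 5 other hits in the lists were in Il4ra, Itpr3, Nradd, Sucnr1 and Tas2r108.

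The 71 tuft barcodes were not alike in depth. They held a median of 2573 UMIs (807 to 36002) in the Mettl14_cKO library and 4415.5 UMIs (795 to 45232) in the control library, below the medians of the other epithelial barcodes, 9082 UMIs in Mettl14_cKO and 10504.5 UMIs in control. Their summed depth was 201267 UMIs in Mettl14_cKO and 538453 UMIs in control. Barcodes of 10000 UMIs or more numbered 5 of 29 in Mettl14_cKO and 16 of 42 in control. These deep barcodes held 67.3% of the summed tuft UMIs in Mettl14_cKO and 84.3% in control.

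The deep barcodes carried fewer tuft transcripts for their depth. The rule asks for 3 UMIs at any depth, so a shallow barcode needs more rule-gene UMIs per 10000 to enter. The part of the rule in this contrast was not tested. Over 31 tuft genes that the rule did not use (taste signalling, eicosanoid synthesis and leukocyte-type signalling), tuft barcodes under 10000 UMIs had a median of 132 UMIs per 10000 in Mettl14_cKO and 65.6 per 10000 in control. In the deep tuft barcodes the medians were 17.8 per 10000 in Mettl14_cKO and 7.55 per 10000 in control. The other epithelial barcodes had medians of 3.06 per 10000 in Mettl14_cKO and 1.76 per 10000 in control, and all 29 and all 42 tuft barcodes lay above the median of their own library. At least 50 UMIs of goblet or colonocyte markers, 5 of cycling or stem markers or 10 of enteroendocrine markers were present in 4 of the 5 deep tuft barcodes of Mettl14_cKO and in 15 of the 16 of control. The same limits were passed by 2 of 24 shallower tuft barcodes in Mettl14_cKO and by 3 of 26 in control. These limits are absolute counts, so depth and free RNA help a barcode pass them. Per 10000 UMIs, goblet markers had medians of 3.33 in deep and 18.8 in shallower tuft barcodes of Mettl14_cKO, and of 17.5 in deep and 34 in shallower ones of control, against 9.24 and 38.4 in immune barcodes of these libraries. Single deep barcodes reached 400.2 goblet UMIs per 10000 in Mettl14_cKO and 580.2 in control. Whether a deep barcode held 1 cell or several was not tested. Scrublet, a doublet caller, scored no tuft barcode at 0.25 or more, and scored 45 of 6920 Mettl14_cKO barcodes and 76 of 9122 control barcodes at that level. Results between genotypes are therefore given for all members and for the 24 Mettl14_cKO and 26 control barcodes under 10000 UMIs, a split chosen after the depths were seen.

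**Figure D1:**
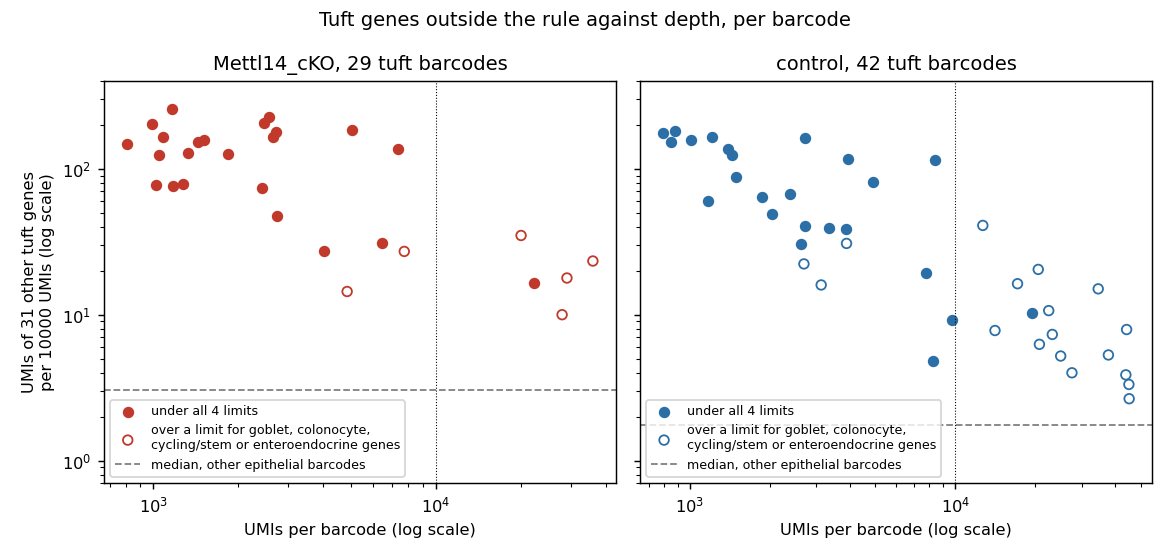
Each point is 1 tuft barcode, with its total UMIs on a log axis across and the UMIs of 31 tuft genes outside the rule per 10000 UMIs on a log axis up, Mettl14_cKO left and control right. Open points passed a limit for goblet, colonocyte, cycling or stem, or enteroendocrine markers, the dashed line is the median of the other epithelial barcodes, and the dotted line marks 10000 UMIs. Tuft transcripts per 10000 UMIs were lower in the deep barcodes, where 4 of 5 points in Mettl14_cKO and 15 of 16 in control are open. The rule and the marker limits are absolute counts, which depth helps a barcode pass.

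By genes other than the 5 of the rule, 19 of the 24 shallower Mettl14_cKO barcodes and 15 of the 26 control ones held 50 or more tuft UMIs per 10000, and no deep barcode did. The label is therefore less well borne out for the rest, among which the lowest shallower values were 14.4 per 10000 in Mettl14_cKO and 4.84 per 10000 in control. Markers of immune cells were at or near 0 in the tuft barcodes, which matters here because tuft cells share many signalling genes with leukocytes. Markers of T or NK cells summed to 0 UMIs in Mettl14_cKO and 1 UMI in control, with Cd3e, Cd3g, Cd3d, Trbc2 and Nkg7 at 0 in both. All 5 mast cell markers were at 0 in both libraries. Myeloid markers summed to 5 UMIs in Mettl14_cKO and 1 UMI in control, with Lyz2, Csf1r and C1qa at 0. B or plasma cell markers summed to 3 UMIs in Mettl14_cKO and 0 UMIs in control. Of the enteroendocrine markers, Neurod1, Scgn and Cpe were at 0, and Chga and Chgb had 11 and 10 UMIs in Mettl14_cKO, against 0 and 4 UMIs in control. A single Mettl14_cKO barcode held 17 of the 22 enteroendocrine marker UMIs of that library.

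Several facts of the libraries touch every comparison between genotypes. Mettl14 itself had 1 UMI in Mettl14_cKO tuft barcodes and 4 UMIs in control tuft barcodes, and 5.1 CPM (counts per 1000000 of the UMIs summed over a class of barcodes) and 4.78 CPM in the other epithelial barcodes. Which part of the gene was deleted is not stated in the sources used here, so these counts do not check the genotype. Xist, transcribed in females, had 56 UMIs in Mettl14_cKO tuft barcodes and 0 UMIs in control, while the Y-linked genes Ddx3y and Eif2s3y had 0 UMIs each in Mettl14_cKO and 16 and 24 UMIs in control. Genotype and the sex of the pooled mice cannot be told apart in these data. The 2 libraries listed 33 barcode sequences in common, and 1 of them was a tuft barcode, in 1 library only.

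Tuft barcodes made up 0.505% (exact binomial 95% interval 0.338 to 0.725) of 5742 epithelial barcodes in Mettl14_cKO and 0.486% (0.35 to 0.656) of 8644 in control. The intervals overlapped over most of their length. Among epithelial barcodes under 10000 UMIs the shares were 0.797% (0.511 to 1.18; 24 of 3012) in Mettl14_cKO and 0.636% (0.416 to 0.93; 26 of 4089) in control. Barcodes of 2000 UMIs or more, among them 17 of 29 Mettl14_cKO and 32 of 42 control members, were thinned to 2000 UMIs. Shallower barcodes were left out, and at least 2 UMIs from at least 2 rule genes were asked for. This found 12 of 5027 Mettl14_cKO barcodes (0.239%) and 14 of 7603 control barcodes (0.184%). At this depth no difference in tuft share was detectable.

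The rule genes were spread over the members. Dclk1, a microtubule-associated kinase used widely as a tuft marker, had 65 UMIs in 26 of 29 barcodes in Mettl14_cKO and 97 UMIs in 35 of 42 in control. Trpm5, the cation channel of the taste cascade, had 23 UMIs in 14 barcodes in Mettl14_cKO and 24 UMIs in 18 in control. Sh2d6, an SH2-domain adaptor, had 24 UMIs in 16 barcodes in Mettl14_cKO and 52 UMIs in 31 in control. Avil, an actin-binding protein of the villin family, had 36 UMIs in 19 barcodes in Mettl14_cKO and 44 UMIs in 23 in control. Rgs13, a regulator of G protein signalling, had 102 UMIs in 16 barcodes in Mettl14_cKO, 49 of them in 1 barcode, and 110 UMIs in 23 in control. No rule gene was in every member.

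The edge of the rule was not sharp. Just inside it, 3 Mettl14_cKO and 7 control barcodes had exactly 3 UMIs, with medians of 76.7 and 30.6 UMIs of the other tuft genes per 10000. Just outside, 8 Mettl14_cKO and 9 control barcodes had 2 UMIs from 2 rule genes, with medians of 71.4 and 9.5 per 10000. A further 22 Mettl14_cKO and 5 control barcodes had 3 or more UMIs from a single rule gene, which was Avil in 21 of the 22 and Dclk1 in all 5. Avil was at 4.73 CPM in the other epithelial barcodes of Mettl14_cKO and at 0.56 CPM in those of control.

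Genes set apart in tuft barcodes were those with 10 or more UMIs in the tuft barcodes of each library and at least 8-fold more CPM (with 1 CPM added) than in the other epithelial barcodes of the same library, in both libraries. There were 28 of 2674 genes with enough UMIs, 1.05%, and 5 of these were the rule genes. Of the 23 others, 17 stood on lists of tuft genes by role and 6 did not. Those lists held 80 genes besides the rule genes, of which 42 had enough UMIs and 6 had no UMI in any member. Since members were chosen on genes that go with these, the fold differences are a description of the cells.

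Taste-type signalling was carried by Gng13, Gnat3 and Plcg2. Gng13, the gamma subunit of the taste G protein (chr17:25717171-25719406, GRCm38), had 542 CPM (109 UMIs in 18 barcodes) in Mettl14_cKO tuft barcodes and 119 CPM (64 UMIs in 18 barcodes) in control tuft barcodes, against 6.24 CPM and 1.23 CPM in the other epithelial barcodes of these libraries. Gnat3, the alpha subunit gustducin, had 49.7 CPM in Mettl14_cKO tuft barcodes and 37.1 CPM in control tuft barcodes, against 0.025 CPM and 0.019 CPM in the other epithelial barcodes. These 10 and 20 UMIs came from 7 barcodes of Mettl14_cKO and 5 of control, so most members had none. Plcg2, a phospholipase C of the gamma class, had 104 CPM in Mettl14_cKO tuft barcodes and 22.3 CPM in control tuft barcodes. Plcb2, the phospholipase of the canonical taste cascade, had 4 UMIs in Mettl14_cKO and 10 UMIs in control, and Gnb3, the beta subunit, had 1 UMI in Mettl14_cKO and 0 UMIs in control.

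Eicosanoid synthesis was represented by Alox5ap, Ltc4s and Hpgds. Alox5ap, which presents arachidonic acid to 5-lipoxygenase (chr5:149264767-149288153, GRCm38), had 611 CPM (123 UMIs in 18 barcodes) in Mettl14_cKO tuft barcodes and 111 CPM (60 UMIs in 17 barcodes) in control tuft barcodes, against 0.69 CPM and 0.78 CPM in the other epithelial barcodes. Immune barcodes, which include myeloid cells in Mettl14_cKO, held 906 CPM in Mettl14_cKO and 20.5 CPM in control. The neutrophil gene S100a9 was at 13748 CPM in those Mettl14_cKO immune barcodes and at 0 UMIs in the control ones. In tuft barcodes S100a9 had 3 UMIs in Mettl14_cKO and 0 UMIs in control. The part of immune RNA in the tuft level of Alox5ap was not tested. Ltc4s, which makes leukotriene C4 (chr11:50236461-50238616, GRCm38), had 527 CPM in Mettl14_cKO tuft barcodes and 197 CPM in control tuft barcodes, from 106 UMIs in each, against 8.87 CPM and 1.52 CPM in the other epithelial barcodes. Hpgds, the haematopoietic prostaglandin D synthase whose window is printed above, had 99.4 CPM (20 UMIs) in Mettl14_cKO tuft barcodes and 48.3 CPM (26 UMIs) in control tuft barcodes, against 10.6 CPM and 4.42 CPM in the other epithelial barcodes. Alox5, the 5-lipoxygenase itself, had 6 UMIs in Mettl14_cKO and 8 UMIs in control, and Ptgs1, a cyclooxygenase, had 4 and 6 UMIs. Ptgs2, the inducible cyclooxygenase, had no UMI in any member.

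Leukocyte-type signalling gave 6 of the genes set apart, from 9 genes of that list with enough UMIs. Eicosanoid synthesis gave 3 of 3 and taste signalling 3 of 5, beside 1.05% of all genes with enough UMIs. Matk, a kinase that restrains Src kinases, ranked first among genes other than the rule genes by the smaller of its library ratios, with 402 CPM (81 UMIs in 22 barcodes) in Mettl14_cKO tuft barcodes and 115 CPM (62 UMIs in 26 barcodes) in control tuft barcodes, against 0.84 CPM and 0.39 CPM in the other epithelial barcodes. Pik3r5, a regulatory subunit of the phosphoinositide 3-kinase downstream of G proteins, had 139 CPM in Mettl14_cKO tuft barcodes and 40.9 CPM in control tuft barcodes, against 0.09 CPM and 0.03 CPM in the other epithelial barcodes. Also set apart were Fyb, an adaptor, Vav1, a guanine nucleotide exchange factor, and Lrmp. After thinning to 750 UMIs, the expected share of barcodes with a Matk UMI was 40.6% of Mettl14_cKO tuft barcodes and 22.5% of control tuft barcodes, against 1.94% and 0.419% of immune barcodes and 0.161% and 0.0672% of the other epithelial ones. Ptprc, which encodes the leukocyte surface phosphatase CD45, had 6 UMIs in 6 Mettl14_cKO barcodes and 2 UMIs in 2 control barcodes. Cd300lf, a surface receptor, had 14 UMIs in 11 barcodes in Mettl14_cKO and 12 UMIs in 8 in control.

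Among transcription factors, Hmx2 had 19 UMIs in 13 barcodes in Mettl14_cKO and 25 UMIs in 10 in control, and its homeobox relative Hmx3 had 6 and 15 UMIs. The gene 1810046K07Rik, whose window holds the pair of octamers, had 11 UMIs in 4 barcodes in Mettl14_cKO and 22 UMIs in 9 in control, with 0.064 CPM and 0.037 CPM in the other epithelial barcodes. Pou2f3 had 5 UMIs in 5 barcodes in Mettl14_cKO and 8 UMIs in 6 in control, under the UMI limit for being counted. Its level was 0.025 CPM in the other epithelial barcodes of Mettl14_cKO and 0.047 CPM in those of control.

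Receptors and effectors were near the limit of the depth. The succinate receptor Sucnr1 had 3 UMIs in Mettl14_cKO and 1 UMI in control, and the short-chain fatty acid receptor Ffar3 had 6 UMIs in each. Il17rb, a receptor chain for IL-25, had 2 UMIs in Mettl14_cKO and 4 UMIs in control. The cytokine genes Il25 and Tslp had 3 and 4 UMIs in Mettl14_cKO, against 1 and 0 UMIs in control. Chat, which makes acetylcholine, had 2 UMIs in each library. Siglecf, a surface lectin, had 4 UMIs in 2 barcodes in Mettl14_cKO and 11 UMIs in 11 in control. No difference between genotypes can be read from counts of this size.

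The apical brush was read from villin and espin genes, which other epithelial cells also use. Espn, an actin bundler, had 144 CPM in Mettl14_cKO tuft barcodes and 100.3 CPM in control tuft barcodes, against 3.82 CPM and 43.8 CPM in the other epithelial barcodes. Under 10000 UMIs it had 228 CPM in Mettl14_cKO and 462 CPM in control. Vil1, whose promoter drives the Cre, had 114 CPM in Mettl14_cKO tuft barcodes and 124 CPM in control, against 55.1 CPM and 109.7 CPM in the other epithelial barcodes.

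Transcripts reported to mark a neuronal-type and an immune-type tuft state in mouse small intestine were both present. The neuronal-type list (Nradd, Nrep, Rgs2 and Gng13) summed to 152 UMIs in Mettl14_cKO and 108 UMIs in control, of which Gng13 gave 109 and 64. The immune-type list (Ptprc, Siglecf, Tslp, Rac2, Ptgs1, Cd300lf and Gfi1b) summed to 76 UMIs in Mettl14_cKO and 51 UMIs in control, of which Rac2 gave 41 and 20. Rac2 was also at 80.7 CPM in the other epithelial barcodes of Mettl14_cKO and 0.121 CPM in those of control, so it was not particular to the tuft barcodes there. No split of the members into such states was made, since most held 0 or 1 UMI of most of these genes.

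The 6 genes set apart without standing on a tuft list were Ly6g6f, Nebl, Dock11, Limd2, Fxyd6 and Pygl. Ly6g6f, a surface protein of the Ly6 superfamily, had 22 UMIs in 10 barcodes in Mettl14_cKO and 36 UMIs in 24 in control, against 0.2 CPM and 0.28 CPM in the other epithelial barcodes. Nebl encodes an actin-binding protein and Pygl the liver glycogen phosphorylase. Dock11, an exchange factor, had 27 UMIs in only 2 Mettl14_cKO barcodes, against 39 UMIs in 9 control barcodes. Of the listed genes, Krt23, a keratin, had 109 CPM in Mettl14_cKO tuft barcodes and 37.1 CPM in control, and Tspan6, a tetraspanin, had 124 CPM in Mettl14_cKO and 70.6 CPM in control. Pstpip2 and Cdkn1c, the 2 remaining names among the 25 highest after the rule genes, were under 8-fold in at least 1 library.

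**Figure D2:**
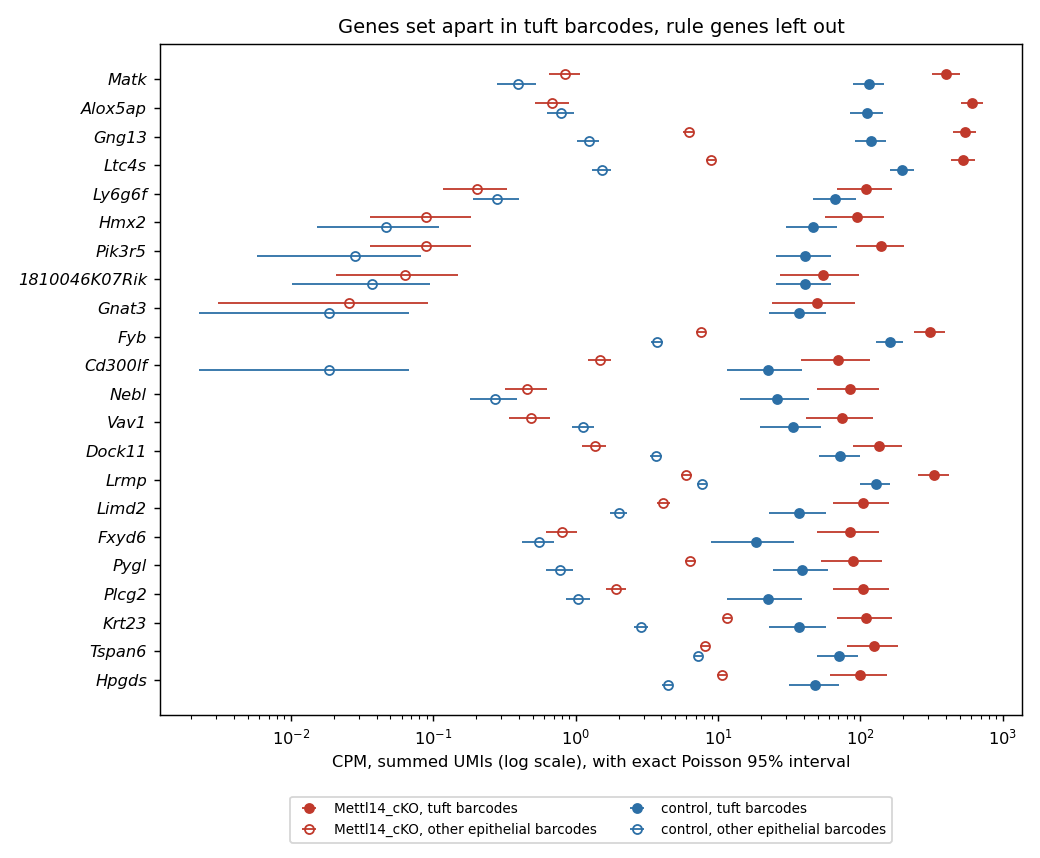
CPM of 22 of the 23 genes set apart (rule genes left out) on a log axis, in tuft barcodes (filled) and other epithelial barcodes (open) of the Mettl14_cKO and control libraries, with exact Poisson 95% intervals. In each library every gene shown lies at least 8-fold higher in tuft barcodes (with 1 CPM added), and the Mettl14_cKO tuft points lie above the control ones for all 22.

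The Mettl14_cKO tuft barcodes had more tuft transcripts for their depth than control ones over all members, and for most genes this was smaller under 10000 UMIs. Over all members, the log2 ratio of Mettl14_cKO to control (with 10 CPM added) was above 0 for all 23 genes set apart, with a median of 1.28. Under 10000 UMIs it was above 0 for 18 of the 23, with a median of 0.54 and a range of -2.54 (Dock11) to 1.46. Deep barcodes held 67.3% of the tuft UMIs in Mettl14_cKO and 84.3% in control. The part of depth in the ratios, over all members or under 10000 UMIs, was not tested.

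Genes were counted between genotypes when they had 50 CPM in 1 library and 30 UMIs in all. They also could not be over 5 times higher in the immune barcodes of either library. Of 2722 such genes, 187 (6.87%) were 2-fold or more higher in Mettl14_cKO tuft barcodes and 240 (8.82%) 2-fold or more lower, around a median log2 ratio of -0.06. A gene at 0 tuft UMIs in 1 library was left out by any immune UMI there, as Wfdc2 was (below). With the immune filter needing both libraries, 2793 genes counted, 192 higher and 278 lower. Under 10000 UMIs, 576 genes had enough UMIs, of which 36 (6.25%) were higher and 100 (17.4%) lower, around a median of -0.19. The median mitochondrial share of the tuft barcodes was 7.09% in Mettl14_cKO and 3.77% in control, and 8.18% in Mettl14_cKO and 3.48% in control under 10000 UMIs. Its part in these counts was not tested beyond leaving out the 9 Mettl14_cKO and 5 control members at 10% or more, which moved both counts over all members by less than 1.5 times. In the other epithelial barcodes the shares of 2679 genes were 4.78% higher and 5.08% lower. Of the tuft list genes other than the rule genes, 38 qualified, with 15 higher, 0 lower and a median of 0.89. Under 10000 UMIs, 27 qualified, with 5 higher, 1 lower and a median of 0.36.

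The 5 tuft list genes that stayed 2-fold or more higher in the shallower Mettl14_cKO barcodes were Gng13, Alox5ap, Ptpn18, Pik3r5 and Cd24a. Gng13, Alox5ap and Pik3r5 are among the genes set apart. Under 10000 UMIs, Alox5ap had 1612 CPM (106 UMIs) in Mettl14_cKO and 580.03 CPM (49 UMIs) in control, a ratio of 2.78 (95% interval 1.96 to 3.98). Gng13 had 1125 CPM (74 UMIs) in Mettl14_cKO and 473 CPM (40 UMIs) in control, a ratio of 2.38 (1.6 to 3.58). Pik3r5 had 335 CPM (22 UMIs) in Mettl14_cKO and 142 CPM (12 UMIs) in control, a ratio of 2.36 (1.12 to 5.22). Ptpn18, a tyrosine phosphatase, had 1201 CPM in Mettl14_cKO and 509 CPM in control, and Cd24a, a surface glycoprotein also present in other epithelium, had 2023 CPM in Mettl14_cKO and 817 CPM in control. Without the Mettl14_cKO barcode that held most UMIs of the gene, the ratio was 1.98 for Alox5ap and 1.91 for Cd24a, under 2-fold, and between 2.01 and 2.18 for the other 3. In immune barcodes Cd24a had 179 CPM in Mettl14_cKO and 32.7 CPM in control, and Ptpn18 had 375 CPM in Mettl14_cKO and 417 CPM in control.

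Several other tuft genes had ratios above 1 but under 2-fold in the shallower barcodes. Ltc4s had 1262 CPM in Mettl14_cKO and 982 CPM in control, from 83 UMIs in each, a ratio of 1.28 (0.936 to 1.76). Matk had a ratio of 1.57 (0.988 to 2.51), Fyb 1.28 (0.861 to 1.92) and Hpgds 1.12 (0.508 to 2.46). These intervals reach 1, and ratios up to their upper bounds are within counting error. Krt18, a simple-epithelium keratin that is high in tuft cells, had 8608 CPM in Mettl14_cKO and 7860 CPM in control. Ethe1, a mitochondrial sulphur dioxygenase on the tuft lists, was 2-fold or more lower there, with 304 CPM in Mettl14_cKO and 1030 CPM in control, 3.39-fold lower in Mettl14_cKO (2.06 to 5.81).

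Among the 12 genes with the highest ratios over all members, Alox5ap and Gng13 stood on the tuft lists, and none of the 12 lowest did. Of the 12 highest, 11 were also 2-fold or more higher under 10000 UMIs and 6 were so in the other epithelial barcodes, several of them on fewer than 10 UMIs in 1 library. Mt2, a metallothionein, had 363 CPM (73 UMIs in 12 barcodes) in Mettl14_cKO tuft barcodes and 26 CPM (14 UMIs in 7 barcodes) in control, with 350.3 CPM and 21.9 CPM in the other epithelial barcodes. Mrpl43, a mitochondrial ribosomal protein, had 715 CPM in Mettl14_cKO tuft barcodes and 128 CPM in control, with 689 CPM and 177 CPM in the other epithelial barcodes. Cbr3, a carbonyl reductase, had 750.2 CPM in Mettl14_cKO tuft barcodes and 61.3 CPM in control, and its log2 ratio of 3.41 was 1.36 under 10000 UMIs. Snx20, a sorting nexin, had 27 UMIs in 14 barcodes in Mettl14_cKO and 4 UMIs in 4 in control.

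Of the same 12, Ly6g6d, Alox5ap, Fcna and Gng13 had log2 ratios of at most 0.54 in the other epithelial barcodes, where their levels are low and the 10 CPM added shrink the ratio. With nothing added, the other epithelial ratio was 5.07 (4.17 to 6.19) for Gng13, against 4.56 (3.32 to 6.3) in tuft barcodes. It was 0.877 for Alox5ap, 2.02 for Fcna and 1.86 for Ly6g6d, against 5.48, 6.54 and 8.16 in tuft barcodes. Ly6g6d had 303 CPM (61 UMIs in 16 barcodes) in Mettl14_cKO tuft barcodes and 37.1 CPM (20 UMIs in 11 barcodes) in control, against 8.03 CPM and 4.33 CPM in the other epithelial barcodes. It lies at chr17:35071443-35078065 on the minus strand (GRCm38), beside Ly6g6f, and overlaps Ly6g6e on the opposite strand, so reads of that overlap are uncertain where strand use is not stated. Fcna, a ficolin, had 22 UMIs in 9 barcodes in Mettl14_cKO and 9 UMIs in 8 in control. The remaining names of the 12, with log2 ratios between 2.14 and 2.61, were 1500009L16Rik, Ccdc85b, Sephs2 and Zfp467.

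Among the counted genes, which leave out Wfdc2 (below), Fabp2 and Guca2a, genes of differentiated epithelium, led the lower side. Of the 12 lowest, 11 were also 2-fold or more lower under 10000 UMIs and 11 were so in the other epithelial barcodes, and the exception in both was Reg3b. Fabp2, a fatty acid binding protein, had 44.7 CPM (9 UMIs in 5 barcodes) in Mettl14_cKO tuft barcodes and 1112 CPM (599 UMIs in 31 barcodes) in control, with 301 CPM and 1032 CPM in the other epithelial barcodes. Guca2a, which encodes guanylin, had 19.9 CPM (4 UMIs) in Mettl14_cKO tuft barcodes and 531 CPM (286 UMIs) in control, with 142 CPM and 565 CPM in the other epithelial barcodes. Lypd8, a secreted antibacterial protein of colonocytes, had 253 CPM (51 UMIs) in Mettl14_cKO tuft barcodes and 2611 CPM (1406 UMIs) in control, with 732 CPM and 2972 CPM in the other epithelial barcodes. For these 3 genes the control tuft barcodes stood near the level of the epithelium around them, and the Mettl14_cKO tuft barcodes were below theirs.

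The shallower barcodes showed these differences too, but not all of them bear out the tuft label equally well. Of these, 19 of 24 in Mettl14_cKO and 15 of 26 in control held 50 or more tuft UMIs per 10000. The same barcodes stand behind every comparison under 10000 UMIs, and the part of this imbalance was not tested. Under 10000 UMIs, Fabp2 had 1 UMI in 24 Mettl14_cKO barcodes and 85 UMIs in 26 control barcodes, Guca2a 1 and 51 UMIs, and Lypd8 3 and 215 UMIs. Colonocyte markers, Guca2a among them, summed there to 183 CPM in Mettl14_cKO and 3397 CPM in control, and their part in these differences was not tested. Of the 287 control UMIs of these markers, 83 and 66 came from barcodes with only 16 and 22.3 tuft UMIs per 10000. Free RNA could add such transcripts to any droplet, so immune barcodes serve as its gauge. They were chosen to hold no Epcam UMI, so this gauge may run low. Fabp2 in immune barcodes was 17.4 CPM in Mettl14_cKO and 127 CPM in control, and Lypd8 was 34.2 CPM in Mettl14_cKO and 299 CPM in control. Car1, a carbonic anhydrase of colonocytes, had 167 CPM in Mettl14_cKO and 2592 CPM in control in the shallower tuft barcodes, beside 73.8 CPM and 1907 CPM in immune barcodes, and the part of free RNA in it was not tested. After thinning to 750 UMIs, the expected share of barcodes with a Fabp2 UMI was 1.14% of Mettl14_cKO tuft barcodes and 39.3% of control tuft barcodes, against 1.86% and 10.1% of immune barcodes. The Mettl14_cKO tuft share was below the immune share of its library and the control tuft share above its own. The part of free RNA in either was not tested. Unthinned, 17.2% of Mettl14_cKO and 73.8% of control tuft barcodes had a Fabp2 UMI, against 4.58% and 22% of immune barcodes, whose median depths were 2033 UMIs in Mettl14_cKO and 1676 UMIs in control.

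The other low genes were of mixed kind. Csrp2, a LIM-domain protein, had 13 UMIs in Mettl14_cKO and 512 UMIs in control, and Hao2, a hydroxy acid oxidase, had 3 and 148 UMIs. Dmbt1, a secreted scavenger receptor, had 22 and 543 UMIs, and Id1, an inhibitor of helix-loop-helix factors, had 4 and 119 UMIs. Gsdmc4, a gasdermin with close paralogs that reads may not separate, had 1 UMI in Mettl14_cKO and 110 UMIs in 12 barcodes in control, with 11.8 CPM and 237 CPM in the other epithelial barcodes. Spink4, a goblet cell product, had 278 CPM in Mettl14_cKO and 2871 CPM in control over all members, and 548 CPM in Mettl14_cKO and 1977 CPM in control under 10000 UMIs, with 249.7 CPM in Mettl14_cKO and 1363 CPM in control in immune barcodes. Goblet markers summed to 9649 CPM in Mettl14_cKO and 13348 CPM in control tuft barcodes, and colonocyte markers to 1799 CPM in Mettl14_cKO and 6974 CPM in control, and their part in these ratios was not tested. Gm5485 and Smim24 were the other 2 of the 12.

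**Figure D3:**
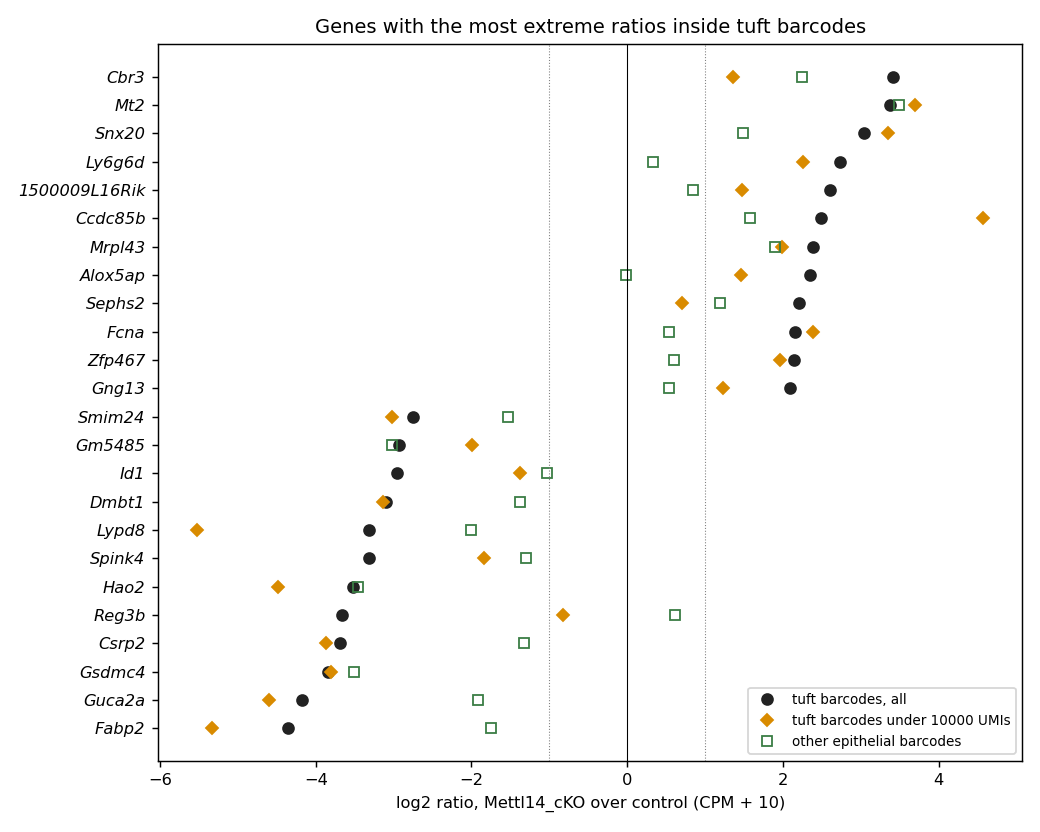
The log2 ratio of Mettl14_cKO over control (CPM with 10 added) of the 12 highest and 12 lowest genes, in all tuft barcodes (filled circles), tuft barcodes under 10000 UMIs (diamonds) and other epithelial barcodes (open squares), with dotted lines at 2-fold. Alox5ap, Fcna and Ly6g6d lie far right of their open squares, as does Gng13, whose ratios with nothing added were alike in size (4.56 in tuft and 5.07 in other epithelial barcodes), and Reg3b is the only one of the 24 whose square lies beyond 0.5 on the opposite side of 0.

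Genes of the wider epithelial response were read in the tuft barcodes by list. Of 115 such genes in the files, 45 qualified over all members, with 5 higher (Spink1, Wfdc18, Serpinb1a, Zc3h13 and Ythdf2) and 15 lower, beside 6.87% and 8.82% of all genes. The lower ones were Gsdmc2 and Gsdmc4 (gasdermins), Ifit1, Ifi27l2b and Bst2 (interferon response), H2-K1 (class I), Psme1 and Psme2 (immunoproteasome), Ly6a and Ly6e (surface proteins), Reg3b and Lypd8 (antimicrobial), Fosb and Atf3 (immediate early) and Hoxb13. Under 10000 UMIs, 21 qualified, with 3 higher (Spink1, Serpinb1a and Retnlb) and 7 lower (Isg15, Ifi27l2b, H2-K1, Psme2, Lypd8, Fos and Atf3), beside 6.25% and 17.4% of all genes.

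Secreted protease inhibitors did not move as 1 group. Spink1, a trypsin inhibitor, had 4223 CPM in Mettl14_cKO tuft barcodes and 119 CPM in control, with 6916 CPM and 224 CPM in the other epithelial barcodes. A single barcode held 455 of the 850 Mettl14_cKO UMIs, and under 10000 UMIs the levels were 3696 CPM in Mettl14_cKO and 426 CPM in control, a ratio of 8.67 (6.09 to 12.7). There too 1 barcode, with 76 goblet marker UMIs, held 158 of the 243 Mettl14_cKO UMIs, and without it the ratio was 3.28 (2.19 to 4.98). Immune barcodes had 382 CPM in Mettl14_cKO and 24.6 CPM in control. After thinning to 750 UMIs, 39.1% of Mettl14_cKO tuft barcodes and 17.9% of control tuft barcodes would show Spink1, against 29.1% and 2.36% of immune barcodes.

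Slpi, the secretory leukocyte protease inhibitor, had 3 UMIs (14.9 CPM, Poisson 95% interval 3.07 to 43.6) in Mettl14_cKO tuft barcodes and 0 UMIs in control tuft barcodes, against 900.4 CPM and 12.4 CPM in the other epithelial barcodes. The Mettl14_cKO tuft level was 0.0166 times that of the other epithelial barcodes (0.00341 to 0.0484). In the other epithelium Slpi was uneven, with UMIs in 22.7% of Mettl14_cKO barcodes. After thinning to 750 UMIs, 3.18% of Mettl14_cKO tuft barcodes and 7.89% of other epithelial barcodes would show it, and 30.1% of immune barcodes, which include neutrophils in Mettl14_cKO and so are no gauge of free RNA for this gene. With 3 UMIs, no more is read from the tuft level. Ly6g had 0 UMIs in the tuft barcodes of both libraries, against 115 CPM and 1.25 CPM in the other epithelial barcodes, and 0 UMIs allow up to 14.9 CPM in Mettl14_cKO. Serpina10, a serpin, was at 59.6 CPM (12 UMIs in 7 barcodes) in Mettl14_cKO tuft barcodes and at 0 UMIs in control, with 97.9 CPM and 1.12 CPM in the other epithelial barcodes.

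Wfdc2, another secreted inhibitor, went the other way. It had 0 UMIs in 29 Mettl14_cKO tuft barcodes and 463 UMIs (860 CPM) in 26 of 42 control tuft barcodes, at least 57.7-fold lower in Mettl14_cKO against a floor of 3 counts. The other epithelial barcodes had 203 CPM in Mettl14_cKO and 548 CPM in control. Under 10000 UMIs the control tuft level was 663 CPM, and immune barcodes had 6 CPM in Mettl14_cKO and 65.5 CPM in control. Slpi, Ly6g, Serpina10 and Wfdc2 were outside the counted genes, through few UMIs or through the immune filter.

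Of 6 qualifying interferon-response genes 3 were 2-fold or more lower in Mettl14_cKO tuft barcodes (Ifit1, Ifi27l2b and Bst2), as were 1 of 2 class I presentation genes (H2-K1) and 2 of 3 immunoproteasome genes (Psme1 and Psme2), beside 8.82% of all genes, and none was higher. Under 10000 UMIs the counts were 2 of 3, 1 of 2 and 1 of 2, beside 17.4% of all genes. The lists summed to 348 CPM in Mettl14_cKO and 1382 CPM in control for interferon response, 1053 and 2282 CPM for class I, and 556 and 1562 CPM for the immunoproteasome. The other epithelial barcodes had 197 and 1087 CPM, 1087 and 2430 CPM, and 456 and 1319 CPM. B2m, Isg15 and Psmb8 were outside the counted genes through the immune filter. B2m, the light chain of class I, had 129 CPM (26 UMIs in 10 barcodes) in Mettl14_cKO tuft barcodes and 717 CPM (386 UMIs in 30 barcodes) in control, with 138 CPM and 604 CPM in the other epithelial barcodes. Under 10000 UMIs it had 122 CPM in Mettl14_cKO and 675 CPM in control, 5.55-fold lower in Mettl14_cKO (2.63 to 13.5). H2-K1, a class I heavy chain, had 263 CPM in Mettl14_cKO and 826 CPM in control, while its near relative H2-D1 had 596 CPM in Mettl14_cKO and 661 CPM in control. Isg15, a ubiquitin-like protein, had 24.8 CPM (5 UMIs) in Mettl14_cKO and 253 CPM (136 UMIs, 80 in 1 barcode) in control. Bst2, an antiviral tether, had 29.8 CPM in Mettl14_cKO and 214 CPM in control. Psmb8, an inducible proteasome subunit, had 24.8 CPM (5 UMIs) in Mettl14_cKO and 245 CPM (132 UMIs) in control, with 22.9 CPM and 210 CPM in the other epithelial barcodes. Irf7, Irf1, Oasl2 and Psmb10 lay between the 2-fold limits in the tuft barcodes, at log2 ratios of -0.45, -0.29, -0.76 and -0.73, and past them in the other epithelial barcodes, at -1.76, -1.50, -1.73 and -1.38. Whether the classes differ was not tested.

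**Figure D4:**
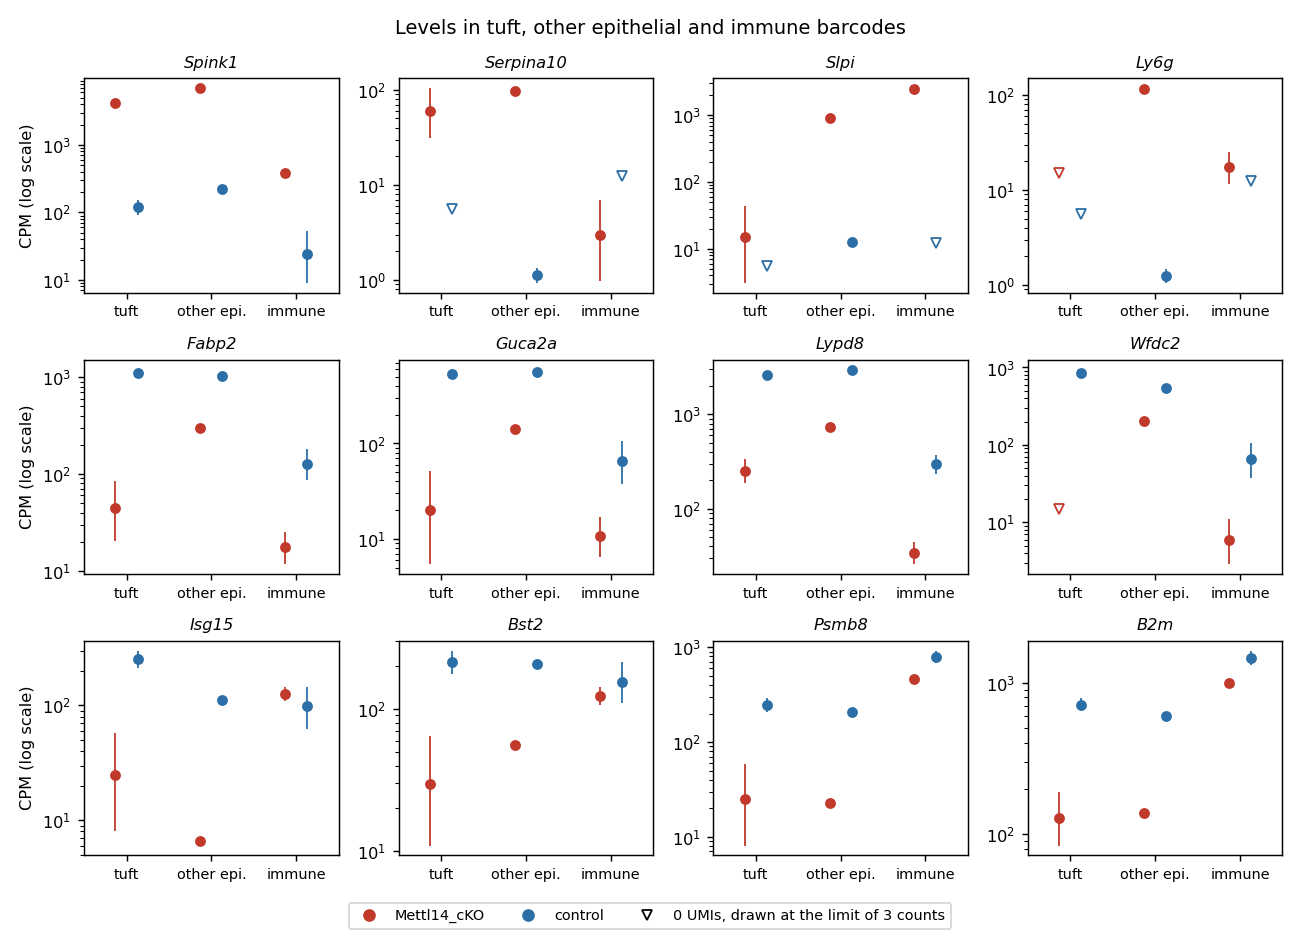
CPM on log axes of 12 genes in tuft, other epithelial and immune barcodes, Mettl14_cKO left of control at each class, with exact Poisson 95% intervals and open triangles for 0 UMIs at the limit of 3 counts. Slpi and Ly6g are low or at 0 in Mettl14_cKO tuft barcodes while the other epithelial barcodes are at 900.4 and 115 CPM, Spink1 is high in both classes, and Wfdc2 is at 0 in Mettl14_cKO tuft barcodes.

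Retnlb, a goblet-derived antimicrobial protein, had 1903 CPM in Mettl14_cKO tuft barcodes and 953 CPM in control over all members, with 220 of the 383 Mettl14_cKO UMIs and 228 of the 513 control UMIs in 1 barcode each. Under 10000 UMIs it had 1323 CPM (87 UMIs) in Mettl14_cKO and 35.5 CPM (3 UMIs) in control, but 76 of the 87 UMIs came from the barcode with 76 goblet marker UMIs, and without it the ratio was 5.09 (1.34 to 28.4), from 11 and 3 UMIs, while immune barcodes had 144 CPM in Mettl14_cKO and 119 CPM in control. Atf3, a stress-induced transcription factor, had 129 CPM in Mettl14_cKO tuft barcodes and 425 CPM in control, with 205 CPM and 933 CPM in the other epithelial barcodes. Krt19, a keratin used to define epithelial barcodes, had 547 CPM in Mettl14_cKO tuft barcodes and 2006 CPM in control.

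Other lists gave few qualifying genes. Of the m6A writer subunits, Zc3h13 had 14 UMIs in Mettl14_cKO and 16 UMIs in control, just past 2-fold higher, and of the readers and erasers Ythdf2 had a log2 ratio of 1.08, against 1.16 in the other epithelial barcodes. Class II presentation genes summed to 40 UMIs in Mettl14_cKO and 335 UMIs in control, of which Cd74, the invariant chain, gave 39 and 265. Of 6 qualifying endoplasmic reticulum folding genes and of 2 apoptosis genes and 1 p53 target, none was past 2-fold. Hoxb13, a distal homeobox gene, had 2 UMIs in Mettl14_cKO and 41 UMIs in control.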

How the data were processed

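Per the file headers, the deposited files were sparse matrices of whole-number UMI counts per gene and barcode, written by 10x software of version 3.1.0. The submitters' processing notes name Cell Ranger 3.0.0 and Seurat 3. The sources used here do not state the genome build or strand use. The deposited counts were used as they stand.

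The 31053 genes were matched by Ensembl ID to GENCODE M21 (GRCm38) for coordinates, with 99.9% found. Barcodes were classed by marker rules. Other epithelial barcodes had 5 or more UMIs over Epcam, Krt8, Krt18, Krt19 and Cldn7, and 0 UMIs over Ptprc, Cd3e, Cd3g, Cd79a, Tyrobp and Laptm5. Immune barcodes had 3 or more UMIs over those 6 genes and no Epcam UMI. Both classes passed the same filters and held no tuft barcodes. CPM are summed UMIs per 1000000 of the summed total of a class. Ratios carry exact conditional binomial 95% intervals, levels exact Poisson ones and shares Clopper-Pearson ones. The ratio intervals, the 2-fold call and the thinned shares were tested on simulated data, and the level and share intervals were not. For the ratios and the 2-fold call, the simulated counts held counting error only. UMIs that gather in single barcodes, as seen for several genes here, were not covered. A gene was left out of counts between genotypes when its CPM was over 5 times higher in immune than in tuft barcodes of either library, or when it was mitochondrial, ribosomal, immunoglobulin, T cell receptor, haemoglobin or sex-linked (Xist, Tsix, Y). Shares of barcodes at equal depth are expectations after thinning to 750 UMIs. Doublets were scored with Scrublet in scanpy 1.11.5 and not removed.

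The members and lists were chosen with earlier results of these data known. Named genes were the tuft lists by role and the 25 genes highest over other epithelium after the rule genes. The 12 highest and 12 lowest of the genes counted between genotypes were also named. For these, the barcode with the most UMIs, multiplied by 3, did not exceed the gene's total in the library where it was higher. A few genes of these lists are counted in the totals but their values are not reported here.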

Additional observations from a re-analysis of the deposited data

Results flagged for a closer look

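Reg3b, Reg3g and Ly6a were named because their levels differed in opposite directions between genotypes in tuft and in other epithelial barcodes. With 1 library a genotype, the difference between the classes was not tested. Reg3b, an antimicrobial lectin, had a log2 ratio of -3.66 in tuft barcodes (10 UMIs in Mettl14_cKO and 401 UMIs in control) and 0.62 in the other epithelial barcodes. Under 10000 UMIs its tuft ratio was -0.82. Reg3g, a related lectin, had a log2 ratio of -0.997 in tuft barcodes (64 UMIs in Mettl14_cKO and 347 UMIs in control) and 1.44 in the other epithelial barcodes, and 0.46 in tuft barcodes under 10000 UMIs. Ly6a, a surface protein, had a log2 ratio of -2.31 in tuft barcodes (16 UMIs in 5 barcodes in Mettl14_cKO and 234 UMIs in 18 in control) and 0.5 in the other epithelial barcodes, and -3.66 in tuft barcodes under 10000 UMIs.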

How the results depend on the processing

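No paired analysis was possible because each genotype had 1 library, and no library could be left out. With 5 or more UMIs over the rule genes, the tuft share was 0.331% in Mettl14_cKO and 0.347% in control. Thinned to 2000 UMIs, without barcodes under that depth, it was 0.239% in Mettl14_cKO and 0.184% in control. Among barcodes under 10000 UMIs it was 0.797% in Mettl14_cKO. Genes 2-fold or more higher numbered 29 in members thinned to 2000 UMIs, 707 with no filter on low values and 36 under 10000 UMIs, against 187. Genes 2-fold or more lower numbered 465 with equal weight per barcode, 47 thinned, 475 with no filter and 100 under 10000 UMIs, against 240. Thinning and the split by depth leave fewer genes with enough UMIs, and dropping the filter adds genes; for equal weights the cause was not tested. The number of genes set apart moved by less than 1.5 times under each setting tried. None of the 12 highest and 12 lowest genes changed direction, and 33 of their 264 alternative values moved beyond the counting interval. These 264 include 2 settings that could move no value. The doublet limit left out no member, and the immune filter that needs both libraries changes only which genes count. Among the tuft genes named by other parts of the rule, some changed direction under 10000 UMIs. Dock11 had log2 ratios of 0.81 over all members and -2.54 there, and Rgs13 1.27 and -0.29. The under-10000 split, an immune filter that needs both libraries and leaving out the barcode with most UMIs of a gene were added after seeing the data. The limits are the 29 and 42 barcodes, 1 library a genotype, the sex of the mice, some deep barcodes with many goblet transcripts, and cytokine genes at 0 to 4 UMIs.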
